A study of Mus musculus with 2 samples.

Results

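Nonclassical patrolling monocytes were described in single-cell RNA sequencing of mouse bone marrow, in 1 control library and 1 library with a MYC transgene. The cells were chosen by their counts. A barcode had to hold at least 1000 unique molecular identifiers (UMIs, each standing for 1 captured transcript) and under 10% mitochondrial UMIs. It also had to hold at least 2 UMIs of Ace and Adgre4 together, at least 1 UMI of Csf1r or Cx3cr1, under 5% of its UMIs from S100a8 and S100a9, and at most 2 UMIs of C1qa, C1qb and C1qc together. The rule found 263 cells in the control library and 120 in the MYC library, 383 of 31569 barcodes in all. The values of those 9 genes chose the cells, so their levels are given only as a description. The control library came from the genotype Mx1Cre+/-;Rosa26+/+ and the MYC library from Mx1Cre+/-;Rosa26LSL-MYC/LSL-MYC, so both carry the Cre recombinase. Mx1-Cre is driven by an interferon-inducible promoter and acts in many blood lineages, and LSL-MYC is a transgene held silent by a stop cassette, which Cre excises. The study aimed to compare gene expression in blood-forming cells after MYC is overexpressed in hematopoietic stem cells. The labels name no treatment, age or number of animals, and no sorting step. With 1 library a group no test was possible and no p-value is given. Intervals are at 95% and cover counting error only, which leaves out the difference between animals. Those of gene levels and gene ratios also leave out the spread between cells.

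Monocytes leave the marrow as Ly6c2-high classical cells, which enter inflamed tissue through the chemokine receptor CCR2. Part of them convert to Ly6c2-low nonclassical cells, which crawl along the inner wall of blood vessels and clear debris from it. That conversion is known to need the transcription factor Nr4a1, with Cebpb upstream of it, and survival of the converted cells depends on the CSF1 receptor Csf1r and the fractalkine receptor Cx3cr1. Ace (angiotensin-converting enzyme) and Adgre4 (an adhesion receptor of the EMR family) are surface proteins of the converted cells.

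The libraries held 17073 and 14496 barcodes with 131884603 and 110012176 UMIs, and 13251 control and 10543 MYC-library barcodes passed the limits on UMIs and mitochondrial share. The nonclassical cells had a median of 7499 UMIs and 2247 genes in control and 9496.5 UMIs and 2519.5 genes in the MYC library, and summed to 2115164 and 1155999 UMIs. A feature named MYC, whose sequence the files do not state, drew 0 UMIs in the control library and 329 in the MYC library. In nonclassical cells it drew 0 and 6 UMIs, the latter in 6 cells, so it checks the library label but not which cells had recombined. The libraries shared 97 barcodes, 1 of them a nonclassical cell of the MYC library. The doublet caller Scrublet marked 3 of the 263 control cells and none of the 120, but it called 0 of 12896 barcodes of the MYC library and so did not work there.

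The label was checked on markers that the rule did not use. Levels are summed UMIs of a gene in the cells of a class per 1000000 UMIs of that class (CPM), and ratios are log2 values after adding 1 CPM. Of 15 such markers of nonclassical monocytes, 14 had at least 50 UMIs in each library's monocytes, and 12 of them were at least 2-fold higher than in classical monocytes in both libraries. Across all 5660 genes compared in that way, 2.3% were 2-fold higher in both libraries and 0.512% were 2-fold lower. These shares are given as a description, because every gene of these cells is tied to the Ace and Adgre4 counts that chose them. Classical monocytes were taken with the same limits, but with Ly6c2, without Ace or Adgre4 UMIs, and without UMIs of Mki67, Top2a and Siglech. That gave 193 control and 218 MYC-library cells, with medians of 9146 and 10577.5 UMIs.

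Treml4, a receptor of the TREM family, stood at 109 CPM in nonclassical and 6.42 CPM in classical monocytes of the control library, and at 94.3 and 6.66 CPM in the MYC library. Eno3, the muscle form of enolase, read 144 against 0.583 CPM in the control, the latter being 1 UMI, and 196 against 3.11 CPM in the MYC library. Fcgr4, an activating Fc receptor for IgG, read 185 against 9.33 CPM and 254 against 21.3 CPM. All 3 genes separated the classes in both libraries by more than their counting intervals. Cd36, a fatty acid and lipoprotein scavenger receptor, was at 107 and 67.5 CPM in nonclassical cells of the control and MYC library and at 1.75 and 0.444 CPM in classical cells. Nr4a1 was at 207 and 144 CPM against 29.2 and 53.3 CPM. Cebpb and Klf2 were the markers short of 2-fold: Cebpb was 0.49 and 0.31 higher on the log2 scale, and Klf2, a shear-responsive transcription factor, 0.75 and 0.48 higher. For Cebpb the direction in the MYC library turned to -0.35 when the limit on C1q was lifted.

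**Figure D1:**
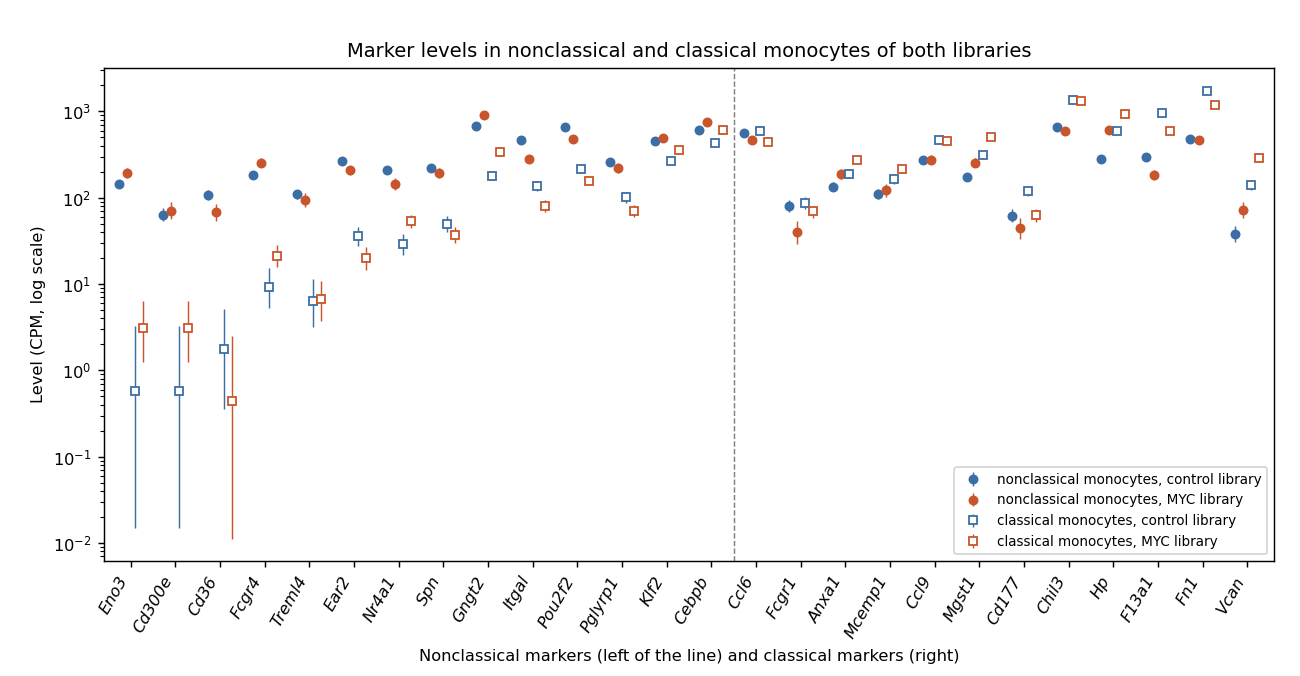
Levels in CPM on a log axis for 14 nonclassical and 12 classical monocyte markers, in nonclassical (filled circles) and classical (open squares) monocytes of the control and MYC library; bars are exact Poisson intervals at 95%, and each class has 1 library per genotype. Left of the line the filled circles lie above the open squares of the same library for every marker shown, and Vcan, Fn1 and F13a1 lie lower in the nonclassical cells.

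Of the 13 classical markers compared, 5 were at least 2-fold lower in nonclassical cells of both libraries and none was higher, where 0.512% of all genes were lower, with medians of -0.95 and -0.80. F13a1, a coagulation factor subunit made by classical monocytes, read 294 against 955 CPM in control and 185 against 588 CPM in MYC-library cells. Vcan, a matrix proteoglycan, read 38.3 against 141 CPM and 72.7 against 290 CPM. Fn1 (fibronectin) and the chitinase-like Chil3 were also past 2-fold. These 4 genes still had UMIs in the chosen cells, and 8 of the 13 markers did not pass 2-fold in both libraries.

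Among cells that met all other limits, 192 control cells held 1 UMI of Ace and Adgre4 and stayed out, 60 held 2, 72 held 3 or 4, and 131 held 5 or more. In the MYC library these counts were 112, 35, 38 and 47. Over these 4 steps Treml4 read 11.3, 43.1, 87.6 and 161 CPM in control cells and 16.3, 23.6, 103 and 160 CPM with MYC. Eno3 read 4.44, 19, 82.3 and 253 CPM in control cells and 21.9, 33.0, 209 and 353 CPM with MYC. Both genes were thus higher in the upper steps of both libraries, and at 2 UMIs they were closer to the cells outside the rule than to those with 5 or more.

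Classical genes ran the other way along the same steps. Ly6c2, the Ly6C antigen gene, read 1610, 1363, 753 and 479 CPM in control cells and 1118, 768, 200 and 170 CPM with MYC. F13a1 went from 854 to 153 CPM and from 498 to 53.5 CPM between the first and the last step. Ccr2 read 1524, 1494, 1281 and 695 CPM in control cells and 1086, 1098, 690 and 435 CPM with MYC. It was thus still present in the upper steps. Nr4a1 read 34.0, 60.4, 204 and 296 CPM in the control, and 53.7, 77.8, 181 and 185 CPM in the MYC library. H2-Ab1, a class II MHC chain, showed no such slope in the control, with 617, 871, 776 and 830 CPM. In the MYC library it read 318, 231, 796 and 637 CPM. At 2 UMIs the MYC-library cells held 566 CPM of Elane and 658 CPM of Prtn3, both proteases of neutrophil precursors, against 56.9 and 67.3 CPM in the control. These were 35 cells, and over all 120 MYC-library cells 1 cell held 223 of 260 Elane UMIs and 1 cell held 161 of 345 Prtn3 UMIs. The steps are counts of the genes that chose the cells, and at 1 or 2 UMIs sampling can mix cells of different levels. They do not show whether the cells form 1 range or separate groups, and no order between neighbouring steps was tested.

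**Figure D2:**
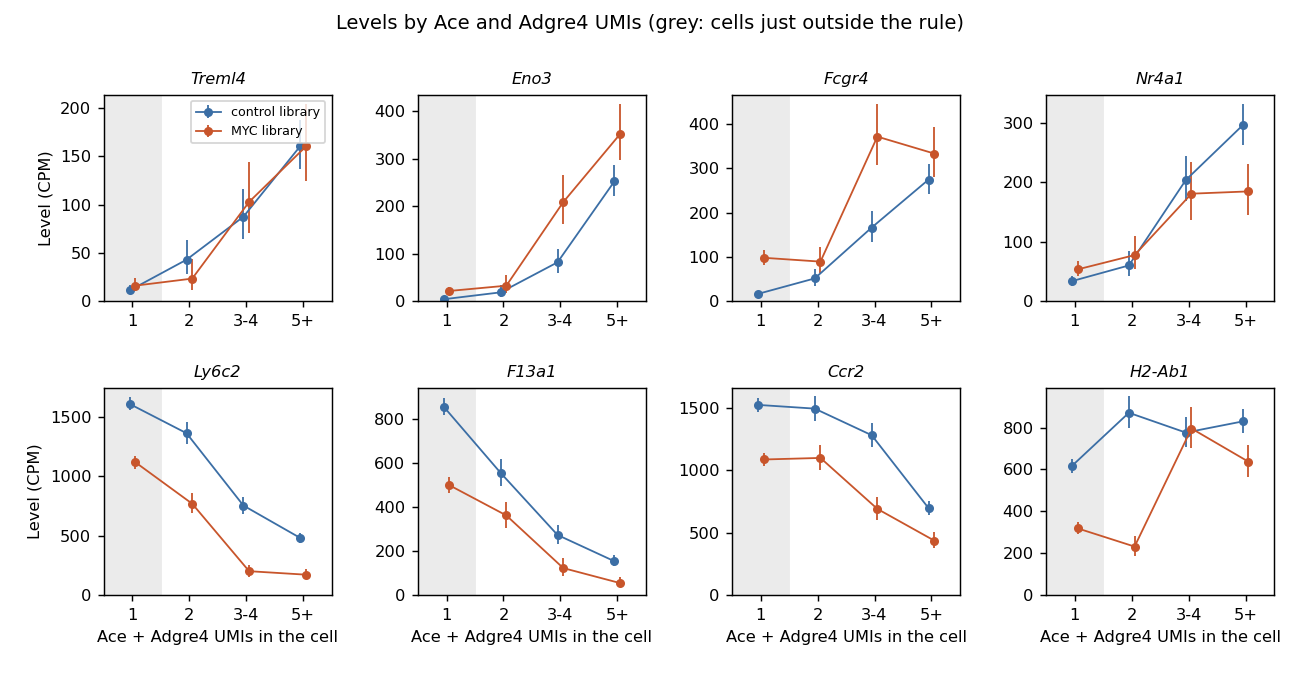
Levels in CPM of 8 genes in cells grouped by their UMIs of Ace and Adgre4 together (1, 2, 3 to 4, and 5 or more), in both libraries, with exact Poisson intervals at 95%; the grey step lies just outside the rule. Treml4, Eno3 and Nr4a1 are higher and Ly6c2 and F13a1 lower in the last step than in the first, in both libraries.

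The rule genes themselves stood as follows in the chosen cells. Ace was at 338 CPM in control cells and 221 CPM with MYC, and Adgre4 at 361 and 263 CPM. Csf1r was at 562 and 401 CPM, and Cx3cr1 at 442 and 306 CPM. In the control 170 cells held UMIs of both Ace and Adgre4, 20 of Ace alone and 73 of Adgre4 alone. In the MYC library the counts were 81, 12 and 27. The median was 4 UMIs of both genes together in each library.

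The limit on C1q weighed unequally on the libraries. It alone left out 32 control barcodes and 93 MYC-library barcodes. Their median C1q count was 25 and 49 UMIs, and Ace in them was at 66.8 and 7.38 CPM against Adgre4 at 438 and 280 CPM. C1q genes encode the recognition subunit of complement and are typical of macrophages. The barcodes left out held little Ace beside Adgre4, above all in the MYC library. All had passed the limit of at least 2 UMIs of Ace and Adgre4 together, so those with little Ace had to hold Adgre4. Of all Ace and Adgre4 UMIs in barcodes that passed, the chosen cells held 67.7% in control cells and 38.4% with MYC, and the barcodes left out by C1q held 6.23% and 18.7%.

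Nonclassical monocytes made up 1.98% (1.75 to 2.24) of passing control barcodes and 1.14% (0.945 to 1.36) of those of the MYC library, a difference of -0.847 percentage points (-1.16 to -0.527). Classical monocytes went the other way, with 1.46% and 2.07%, a difference of 0.611 points (0.269 to 0.962). For each classical monocyte the control held 1.36 (1.13 to 1.65) nonclassical cells and the MYC library 0.550 (0.437 to 0.691). That is -1.31 (-1.74 to -0.87) on the log2 scale. The classical rule left out cells with Mki67 or Top2a UMIs, and the nonclassical rule did not. With that limit on both classes, 120 control and 69 MYC-library nonclassical cells stood against 193 and 218 classical cells. With no limit on C1q the difference in share was -0.206 points (-0.578 to 0.171) and the log2 ratio -0.664 (-1.05 to -0.275). Leaving out barcodes with markers of another lineage kept 62 control and 69 MYC-library cells. These were 1.30% of the 4761 and 1.02% of the 6788 barcodes kept, a difference of -0.286 points (-0.714 to 0.118). Over all 13251 and 10543 passing barcodes they were 0.468% and 0.654%, a difference of 0.187 points (-0.00912 to 0.391), so the direction turned with the denominator. When Ighm was not counted among those markers, the difference was -0.967 points over the barcodes kept and -0.442 points over all passing barcodes. Also over all passing barcodes, the difference was -0.251 points (-0.479 to -0.0193) without cells holding Mki67 or Top2a UMIs and -0.434 points (-0.668 to -0.199) in cells with at most 1 Ly6c2 UMI. The direction of the share thus depended on how barcodes with other-lineage markers were treated, and without the C1q limit it was not resolved from 0. A lower share and a larger number of other cells in the library cannot be told apart here.

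Set against classical monocytes, only genes averaging 50 CPM or more across both classes and libraries were ranked, without the families left out of naming. Those highest by the smaller log2 ratio were Eno3, Treml4, Fcgr4, Ear2, Fabp4, Pltp and 6 others. Below that level Cd36, at a smaller ratio of 5.29, S1pr5 at 3.28 and Bcl2a1b at 2.72 stood above some of these. Fabp4, a fatty acid carrier, read 105 CPM against 0.583 CPM (1 UMI) in control and 157 against 3.55 CPM in MYC-library cells. Pltp, a phospholipid transfer protein, read 58.6 against 9.92 CPM and 119 against 18.6 CPM. Ear2, an eosinophil-associated ribonuclease gene that has close relatives in the mouse genome, read 268 against 36.2 CPM and 208 against 19.98 CPM. An interval of the log2 ratio that excludes 0 in each library was a condition for this ranking, so it adds no support. The Fabp4 gene lies on chromosome 3 at 10204088 to 10208576 of GRCm38, Eno3 on chromosome 11 at 70657202 to 70662513, and Treml4 on chromosome 17 at 48264295 to 48275360.

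These 6 were Cd300ld, Stap1, Tppp3, Grk3, Spn and Lair1. Spn, the sialomucin CD43 used to sort these cells, read 222 against 50.2 CPM in control and 194 against 37.3 CPM in MYC-library cells. Lair1, an inhibitory collagen receptor, read 124 against 22.2 CPM and 110 against 27.1 CPM. Grk3, a kinase that desensitises G-protein-coupled receptors, read 230 against 48.4 CPM and 188 against 23.5 CPM. The smaller log2 ratio of both libraries ran from 1.98 for Lair1 to 2.37 for Cd300ld over these 6 genes, and from 2.45 for Pltp to 5.58 for Eno3 over the first 6. Within single libraries this order did not always hold: in the control Tppp3 stood at 2.99 and Ear2 at 2.86.

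On the lower side stood, among others, Vcan, F13a1 and Fn1 together with Lgals1, Cfp, S100a10, Capg, C1galt1c1, Iqgap2, Olfm1 and the unnamed gene AI839979. Lgals1 (galectin-1) read 174 against 506 CPM in control and 330 against 965 CPM in MYC-library cells. S100a10, a partner of annexin A2, read 166 against 443 CPM and 306 against 736 CPM. Cfp (properdin, which stabilises the complement convertase) read 56.7 against 152 CPM and 48.4 against 129 CPM. Lgals1 and S100a10 were at higher levels in the MYC library in both classes, while their distance between the classes was alike: -1.53 and -1.55 for Lgals1, and -1.41 and -1.26 for S100a10. Whether these distances differ between the libraries was not tested.

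Genes of vessel homing and crawling were taken from a list of 25, of which 21 could be compared between the classes. In both libraries 5 were at least 2-fold higher in nonclassical cells and 1 was lower, where 2.3% and 0.512% of all genes were. S1pr5, the sphingosine phosphate receptor through which these cells leave the marrow, read 49.2 against 2.33 CPM in control and 47.6 against 3.995 CPM in MYC-library cells. Itgal, the alpha chain of the integrin LFA-1 that carries crawling, read 471 against 136 CPM and 283 against 80.3 CPM. Pecam1, an adhesion molecule of vessel walls, read 24.1 against 5.25 CPM and 40.7 against 4.44 CPM. The other 2 were the tetraspanin Cd9 and the integrin chain Itgb1.

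Of 14 survival genes compared between the classes, 3 were at least 2-fold higher in nonclassical cells of both libraries and none was lower, where 2.3% of all genes were higher. Bcl2, which blocks mitochondrial cell death, read 44.9 against 13.4 CPM in control and 52.8 against 11.1 CPM in MYC-library cells. Bcl2a1b, a relative of Bcl2 with near-identical copies among which reads may be split, read 40.2 against 5.25 CPM and 64.9 against 3.995 CPM. Pmaip1, the death-promoting protein NOXA, read 56.3 against 11.7 CPM and 33.7 against 14.2 CPM.

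Of 7 class II antigen presentation genes compared, 4 were at least 2-fold higher in nonclassical cells of both libraries, where 2.3% of all genes were, with medians over the list of 1.69 and 1.504. Cd74, the invariant chain, read 2827 against 848 CPM in control and 1697 against 537 CPM in MYC-library cells. H2-Ab1 read 827 against 227 CPM and 532 against 142 CPM. Thinned to 1000 UMIs a cell, 26.6% of control and 19.2% of MYC-library nonclassical cells held a UMI of H2-Ab1, against 8.29% and 4.13% of classical cells. In erythroid cells, which should lack the gene, the thinned shares were 1.65% and 0%, where 0 of 164 cells allows a share of up to 2.22% by the exact interval. Before thinning the shares in nonclassical cells were 41.1% and 34.2%, at the median depths given above, and in erythroid cells 6.38% and 3.66%, at medians of 7507 and 9802 UMIs.

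The nonclassical cells were also divided by their Ly6c2 UMIs. In the control 138 of them (52.5%) and in the MYC library 64 (53.3%) held at most 1 Ly6c2 UMI, a difference of 0.862 points (-10.3 to 11.9). In those cells Treml4 was at 187 and 164 CPM, against 57.9 and 45.5 CPM in the cells with more Ly6c2. Nr4a1 was at 334 and 215 CPM against 124 and 95.4 CPM. F13a1 was at 75.2 and 42.2 CPM against 438 and 285 CPM. A limit on a UMI count selects shallower cells, and the medians were 5729.5 against 9247 UMIs a cell in control and 7508.5 against 11090.5 in MYC-library cells. H2-Ab1 did not split alike, with 1113 against 639 CPM in control and 476 against 571 CPM in MYC-library cells.

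Between the libraries, 6149 genes with at least 50 UMIs were compared in the nonclassical cells. Of these, 239 (3.89%) were at least 2-fold higher in the MYC library and 392 (6.38%) at least 2-fold lower, and the median gene was at -0.12. The split depended on the scaling. With size factors set by the median gene, 362 were higher and 258 lower. With the ribosomal protein genes out of the denominator, 506 were higher and 214 lower, with the median gene at 0.09. With the 20 most abundant genes out of it, 136 were higher and 629 lower, with the median at -0.29. Classical monocytes of the same libraries gave 383 (5.94%) higher and 423 (6.56%) lower of 6448 genes, with a median of -0.12. Both classes come from the same libraries, so their values are set side by side and no overlap is read from them.

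**Figure D3:**
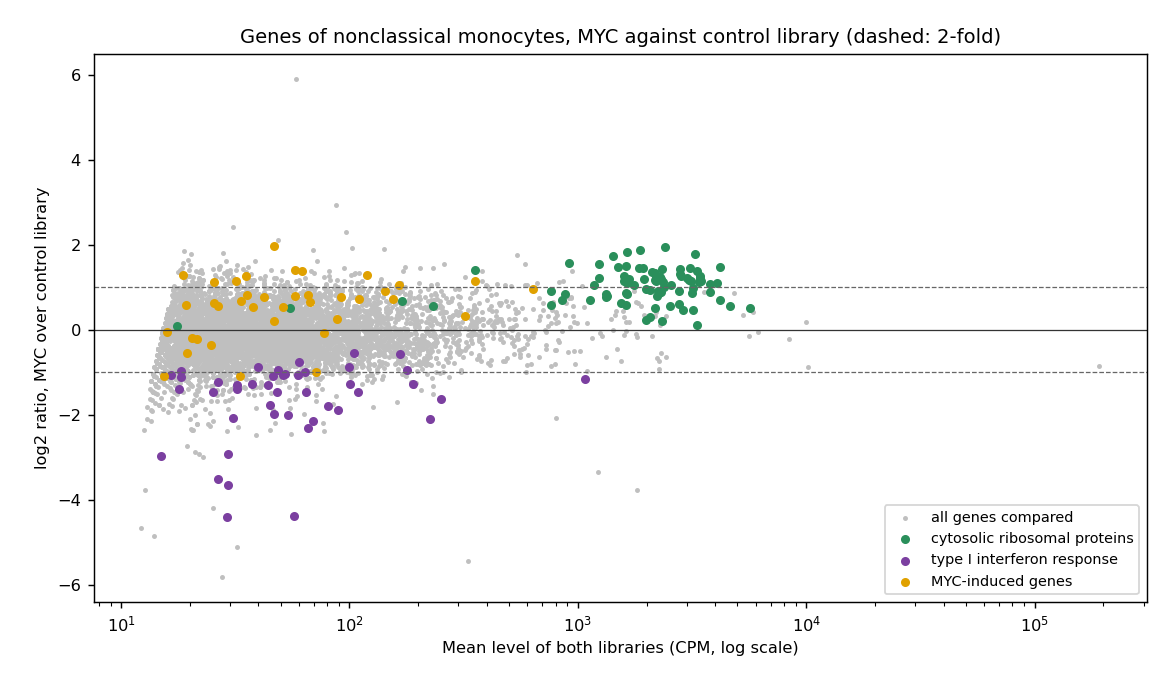
Each point is 1 of 6149 genes in nonclassical monocytes, with the mean CPM of both libraries on a log axis and the log2 ratio of MYC over control library; dashed lines mark 2-fold. The interferon response genes lie below 0, and the cytosolic ribosomal protein genes lie above it, many of them at the high end of the CPM axis.

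Saa3, a serum amyloid A of the acute phase, had the largest ratio of the genes that averaged 50 CPM or more across the libraries. It drew 2 UMIs in the control cells (0.946 CPM) and 134 in the MYC-library cells (116 CPM), a log2 ratio of 5.91 with a counting interval of 5.06 to 10.0. The 134 UMIs lay in 9 of 120 cells, and 1 cell held 44 of them. Without the richest cell of each library the ratio was 5.75. The gene lies on chromosome 7 at 46711998 to 46715700. In classical monocytes Saa3 was at 1.75 and 90.1 CPM. Ctsg, the neutrophil granule protease cathepsin G, was at 19.4 CPM in control cells and 155 CPM with MYC, but 1 cell held 143 of its 179 UMIs. Without the richest cells its ratio went from 2.93 to 1.69. The histone gene Hist2h2ac likewise went from 1.87 to 1.38, with 53 of 127 UMIs in 1 cell.

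The other highest genes were spread over many cells. Slc25a4, the mitochondrial carrier that exchanges ADP and ATP, was at 32.1 CPM in control cells against 162 CPM with MYC, a log2 ratio of 2.30 (1.92 to 2.75), with a UMI in 49 of 263 and 71 of 120 cells. Ppp1r14b, an inhibitor of protein phosphatase, was at 42.1 and 163 CPM, a ratio of 1.93 (1.58 to 2.33). Rbm3, a cold-induced RNA-binding protein, was at 245 and 838 CPM, a ratio of 1.77 (1.62 to 1.93). An interval that leaves out equal levels was a condition for naming these 3 genes, so it adds no support. In classical monocytes the same genes had ratios of 1.64, 1.84 and 1.55. Tmem147, Nme2, Ssr4 and Atp5g1 made up the rest, with ratios of 1.49 to 1.62. Nme2 makes a nucleoside diphosphate kinase, Ssr4 a subunit of the translocon at the endoplasmic reticulum, and Atp5g1 the membrane ring of ATP synthase.

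Among the 10 lowest genes at that level, immunoglobulin and the other families left out of naming aside, were 6 interferon response genes, Rsad2, Isg15, Oasl2, Stat2 and Irf7 among them, described next. Outside that list stood Lpl, H2-Q7, Gm15564 and Cenpf. Lpl, lipoprotein lipase, was at 95.03 CPM in control cells and 16.4 CPM with MYC, a ratio of -2.46 (-3.29 to -1.85). It was at 201 and 49.3 CPM in classical monocytes. Without the limit on C1q the Lpl ratio in nonclassical cells turned to 0.15. H2-Q7, a nonclassical class I MHC gene with close copies, was at 130 and 24.2 CPM, a ratio of -2.38 (-3.05 to -1.87). Cenpf, a kinetochore protein of dividing cells, was at 102 and 25.1 CPM. Its UMIs lay in 52 control and 12 MYC-library cells, and 1 control cell held 37 of 215. It belongs to the cell division genes, for which no direction is given below.

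Interferon response genes were lower in the MYC library across the list. Type I interferon, through the receptor chains Ifnar1 and Ifnar2, activates a complex with STAT2 and IRF9, which switches on antiviral genes by binding a DNA element in their promoters. Of 49 such genes among the features, 44 could be compared, and in the nonclassical cells 36 were at least 2-fold lower and none was higher. The background for a 2-fold lower level was the 6.38% given above. The list's median was -1.34, where that of all genes was -0.12, and all 44 intervals lay below 0. Summed over the list, the level was 5810 CPM in control cells against 2220 CPM with MYC, a log2 ratio of -1.39 (-1.45 to -1.33). With the ribosomal genes out of the denominator 28 of 44 were 2-fold lower, and with the median-gene scaling 29.

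The antiviral effectors had the largest differences. Rsad2 (viperin, which makes a chain-terminating nucleotide) drew 233 UMIs in the control cells and 5 in the MYC-library cells, or 110 and 4.33 CPM, a log2 ratio of -4.38 (-6.31 to -3.43). Ifit3, which binds foreign RNA with its partners, drew 117 and 4 UMIs, or 55.3 and 3.46 CPM, a ratio of -3.66 (-5.90 to -2.60). Ifit1 of the same family drew 105 and 4 UMIs, a ratio of -3.51. Isg15, a ubiquitin-like modifier, was at 111 and 21.6 CPM, a ratio of -2.30 (-3.01 to -1.76). A UMI of Rsad2 was found in 59 of 263 control cells and 5 of 120 MYC-library cells, and 1 control cell held 45. Without the richest cell of each library the Rsad2 ratio was -4.33.

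Transcription factors of the pathway were lower too. Stat2 was at 87.0 CPM in control cells and 20.8 CPM with MYC, a ratio of -2.02 (-2.75 to -1.45), and Irf7, which amplifies interferon production, at 141 and 37.2 CPM. Irf9 was at 86.05 and 42.4 CPM. Of the receptor chains, Ifnar1 was at 83.7 and 39.8 CPM, a ratio of -1.05 (-1.57 to -0.60), and Ifnar2 at 202 and 159 CPM, a ratio of -0.34. The least lowered members were Epsti1 at -0.57 and Bst2 at -0.54. In cells with at most 1 Ly6c2 UMI the Bst2 ratio was 0.09.

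The classical monocytes of the same libraries had a list median of -1.61, with 39 of 44 genes at least 2-fold lower, and summed levels of 7212 and 2723 CPM. Rsad2 was at 89.8 and 3.11 CPM there, Ifit3 at 66.5 and 6.21 CPM, and Isg15 at 146 and 35.1 CPM. Between nonclassical and classical cells none of 31 list genes compared was past 2-fold in both libraries, near the 2.3% higher and 0.512% lower of all genes, and the medians were -0.23 and -0.17.

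**Figure D4:**
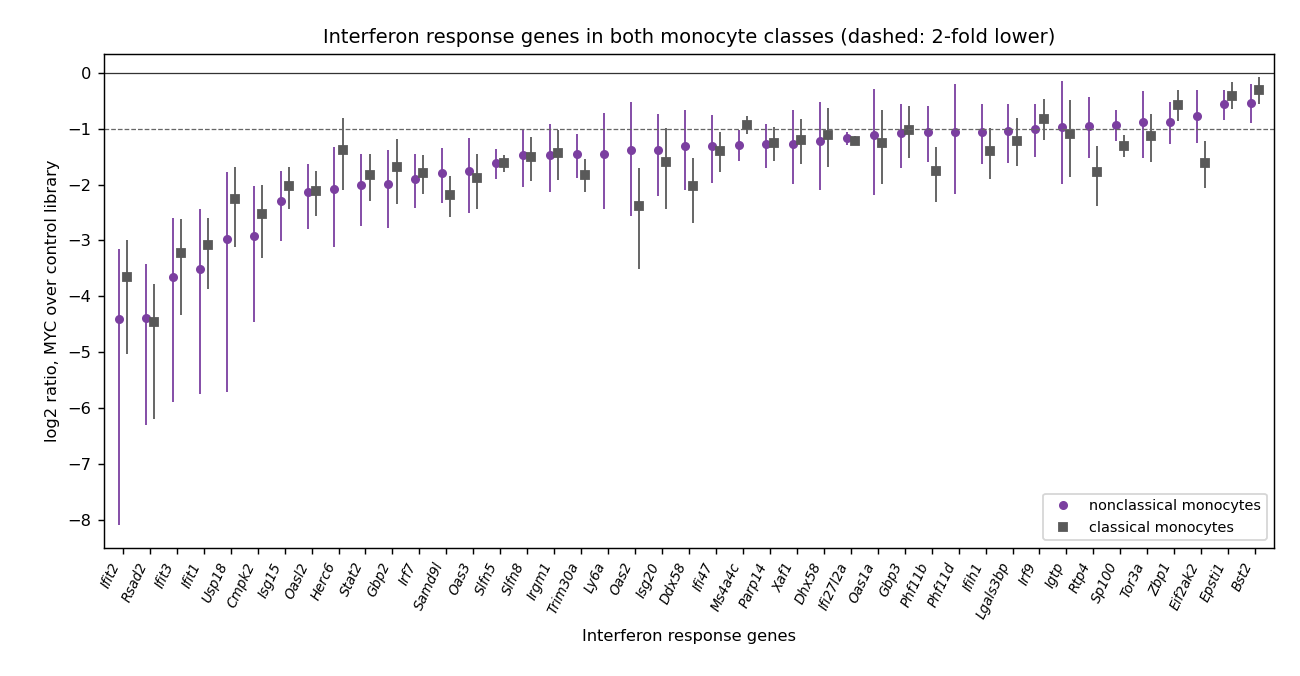
Log2 ratios of MYC over control library for 43 of the interferon response genes compared in nonclassical monocytes (circles), with the values of classical monocytes (squares) where a gene had at least 50 UMIs there; bars are counting intervals at 95% and the dashed line marks 2-fold lower. All circles lie below 0, from Ifit2 at -4.40 to Bst2 at -0.54.

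Free RNA in droplets can add UMIs to any cell, so the shares of cells with a UMI were set against other cell types after thinning to 1000 UMIs. Isg15 was found in 7.60% of control and 0% of MYC-library nonclassical cells, where 0 of 120 cells allows a share of up to 3.03% by the exact interval. B-lineage cells held it in 1.30% and 1.63%, and erythroid cells in 28.2% and 25.6%. Rsad2 was found in 6.08% and 0.833% of nonclassical cells, in 1.95% and 1.95% of B-lineage cells and in 62.6% and 20.1% of erythroid cells. The control nonclassical share lay above that of B-lineage cells for both genes, and the MYC-library share lay at or below it. The B-lineage cells of the MYC library were not free of monocyte transcripts, however. Thinned alike, 3.91% of them held Csf1r, 2.61% Adgre4, 2.61% Nr4a1 and 19.5% Fcgr4, against 1.14%, 0.569%, 0.65% and 0.488% in the control. Before thinning these shares were 22.8%, 15.96%, 13.4% and 30.6%, against 6.50%, 1.87%, 1.95% and 2.76%. They are thus no clean measure of background in that library. Before thinning, the nonclassical shares were 30.4% and 15% for Isg15 and 22.4% and 4.17% for Rsad2, and those of B-lineage cells 10.5% and 15.96%, and 9.76% and 7.49%, at medians of 5570 and 8309 UMIs. Mx1-Cre is itself induced through interferon, the labels do not say when or how it was induced, and its part in these levels was not tested.

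The promoters of 4 of these genes are shown because they carry the motif GAAA, any 2 bases, GAAA, a core form of the interferon-stimulated response element, searched on both strands. Sequences are the 200 bases before the start site from RefSeq (GRCm38.p6), written 5′ to 3′ on the strand of the gene, with matches in capitals. A match on the opposite strand reads TTTC, any 2 bases, TTTC.
Rsad2, chr12:26456453-26456652, minus strand: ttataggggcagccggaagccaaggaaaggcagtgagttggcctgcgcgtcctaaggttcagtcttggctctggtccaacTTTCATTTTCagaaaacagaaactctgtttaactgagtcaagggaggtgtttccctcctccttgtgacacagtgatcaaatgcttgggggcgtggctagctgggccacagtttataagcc
Ifit3, chr19:34583329-34583528, plus strand: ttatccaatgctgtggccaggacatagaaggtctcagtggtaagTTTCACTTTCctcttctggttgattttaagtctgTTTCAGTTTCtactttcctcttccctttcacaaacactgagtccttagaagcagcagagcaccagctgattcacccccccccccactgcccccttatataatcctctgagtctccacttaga
Ifit1, chr19:34640689-34640888, plus strand: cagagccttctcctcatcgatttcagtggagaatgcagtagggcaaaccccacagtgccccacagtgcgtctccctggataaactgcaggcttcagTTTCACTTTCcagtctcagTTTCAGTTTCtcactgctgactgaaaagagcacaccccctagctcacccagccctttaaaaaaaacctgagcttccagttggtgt
Isg15, chr4:156200819-156201018, minus strand: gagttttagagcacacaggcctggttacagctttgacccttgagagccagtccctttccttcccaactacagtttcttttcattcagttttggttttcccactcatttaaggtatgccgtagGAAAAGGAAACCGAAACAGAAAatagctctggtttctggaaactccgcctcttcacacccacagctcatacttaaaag
The first match starts at -120 from the start site in Rsad2, at -156 in Ifit3, at -104 in Ifit1 and at -78 in Isg15. Ifit3 and Ifit1 hold 2 matches each and Isg15 holds 3 that overlap. In windows of 250 bases before to 50 after the start, 21 of the 38 interferon list genes with a window held the motif (55.3%), against 1079 of 27025 windows of all genes (3.99%). It was in 16 of the 29 list genes that were 2-fold lower and in 3 of 5 compared genes that were not. Of 65 ribosomal protein genes with a window, 7 held it (10.8%). A match describes these letters only, and binding of a factor was not measured.

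Of the lists compared, that of ribosomal protein genes held the most members on the higher side. They encode the protein part of the cytosolic ribosome and are known as targets of MYC. Of 84 compared, 46 were at least 2-fold higher in the MYC library and none was lower, against the 3.89% of all genes, with a median of 1.07. Their summed level was 123316 CPM in control cells against 250073 CPM with MYC, a log2 ratio of 1.02. Many of these genes have near-identical pseudogene copies, among which reads may be split. With these genes out of the denominator 62 were 2-fold higher, and with the 20 most abundant genes out 31. Rps18 was at 993 and 3841 CPM, a ratio of 1.95 (1.88 to 2.03). Rps2 was at 798 and 2951 CPM and Rpl12 at 715 and 2569 CPM. At the other end, Rpl37a was at 3192 and 3435 CPM, a ratio of 0.11, and Rpl38 at 2169 and 2509 CPM. The lowest ratio, 0.09 (-0.76 to 0.91), was that of Rpl3l, a form typical of muscle with 36 and 21 UMIs. The difference was thus uneven within the ribosome. Classical monocytes had a median of 1.03, with sums of 131610 and 257229 CPM.

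Other MYC-induced genes followed, many of them factors of ribosome assembly in the nucleolus. Of 38 compared, 10 were at least 2-fold higher and 2 lower, where 3.89% and 6.38% of all genes were, with a median of 0.70. Mrto4, a factor of large-subunit assembly, was at 18.4 CPM in control cells and 75.3 CPM with MYC, a ratio of 1.97 (1.47 to 2.61). Nme1, the partner of Nme2, was at 69.0 and 170 CPM, and C1qbp, a mitochondrial matrix protein, at 31.2 and 84.8 CPM. Npm1 (nucleophosmin) was at 433 and 840 CPM, a ratio of 0.95. Not all members were higher. Odc1, the first enzyme of polyamine synthesis and a textbook MYC target, was at 45.4 and 20.8 CPM, a ratio of -1.09 (-1.84 to -0.47), while in classical cells it was at 14.6 and 23.5 CPM. Sord, sorbitol dehydrogenase, was the other member past 2-fold on the lower side, at 21.3 and 9.52 CPM. The classical median was 0.83.

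Of 67 genes of oxidative phosphorylation compared, 6 were at least 2-fold higher and none lower, where 3.89% of all genes were higher, with a median of 0.54 and a summed level of 11815 and 17266 CPM. Atp5g1 was at 91.7 CPM in control cells and 260 CPM with MYC, a ratio of 1.49 (1.24 to 1.77), and Ndufv2 of complex I at 59.6 and 151 CPM, a ratio of 1.33. Ndufa3 of the same complex was the lowest, at 211 and 131 CPM. Under the scalings tried the list's median ran from 0.36 to 0.76. Mxd1, a partner of MAX that opposes MYC, was at 29.8 and 11.2 CPM, and was the 1 member past 2-fold among the 8 genes of the MYC network compared, where 6.38% of all genes were 2-fold lower.

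Antigen presentation genes were mostly short of 2-fold between the libraries. Of 18 class I and immunoproteasome genes, 4 were at least 2-fold lower and none higher, against 6.38% of all genes, with a median of -0.69. H2-K1, a classical class I chain, was at 1450 CPM in control cells and 735 CPM with MYC, a ratio of -0.98 (-1.09 to -0.87). B2m, its light chain, was at 2948 and 1898 CPM, a ratio of -0.64 (-0.71 to -0.57), and Tapbp (tapasin), which loads peptide, at 240 and 112 CPM. The immunoproteasome subunit Psmb8 was on the other side, at 317 and 369 CPM. Of 7 class II genes none was past 2-fold, with a median of -0.70. H2-Aa was at 1007 and 578 CPM, a ratio of -0.80, and the transactivator Ciita at 62.4 and 36.3 CPM, a ratio of -0.76 (-1.32 to -0.27). In cells with at most 1 Ly6c2 UMI 5 of 7 class II genes were 2-fold lower and the median was -1.42. In those cells 209 of all genes compared were 2-fold lower, and the median of all genes was -0.09. In cells with at least 3 UMIs of Ace and Adgre4 the class II median was -0.20, where that of all genes was -0.13.

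**Figure D5:**
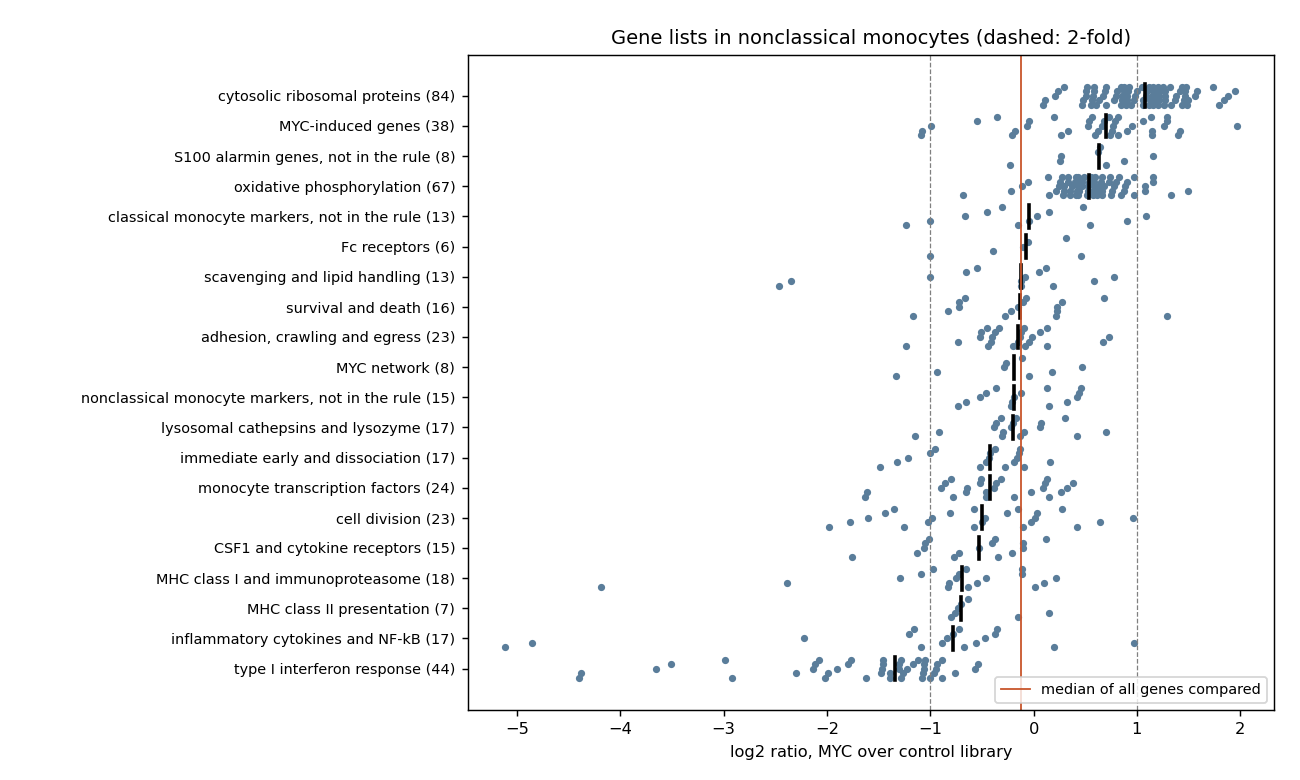
Log2 ratios of MYC over control library in nonclassical monocytes for the compared genes of 20 lists, with the number compared in brackets; black bars are list medians and the coloured line is the median of all 6149 genes. Interferon genes have the lowest median (-1.34) and ribosomal protein genes the highest (1.07).

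Of 15 receptors for cytokines and growth factors compared, 5 were at least 2-fold lower and none higher, against 6.38% of all genes, with a median of -0.53. With the ribosomal genes out of the denominator 1 of 15 was past 2-fold, with a median of -0.30. Csf3r, the receptor for granulocyte colony-stimulating factor, was at 131 CPM in control cells and 38.1 CPM with MYC, a ratio of -1.76 (-2.28 to -1.32). It was at 135 and 40.8 CPM in classical cells. Il6ra was at 316 and 144 CPM, Il10ra at 167 and 79.6 CPM and Tnfrsf1b, a receptor of tumour necrosis factor, at 333 and 164 CPM. Ifngr1, the ligand-binding chain of the interferon gamma receptor, was at 516 and 559 CPM.

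Of 6 Fc receptor genes, which bind antibody, 1 was past 2-fold, on the lower side, where 6.38% of all genes were. Fcgr1, the high-affinity receptor, was at 80.8 CPM in control cells and 39.8 CPM with MYC, with an interval of the log2 ratio from -1.53 to -0.55. Its value lay close to the 2-fold limit, so this count of 1 depends on small changes. Fcgr4 was at 185 and 254 CPM, a ratio of 0.46 (0.24 to 0.68), and the signalling chain Fcer1g at 1424 and 1769 CPM, a ratio of 0.31. The Fcgr4 ratio was -0.18 when barcodes with markers of another lineage were left out and 1.94 with no limit on C1q, so its direction and size depended on which cells were kept. In B-lineage cells Fcgr4 was at 3.63 CPM in the control and 363 CPM with MYC. Thinned to 1000 UMIs, Fcgr4 was found in 21.3% of control and 21.7% of MYC-library nonclassical cells, and in 0.488% and 19.5% of B-lineage cells. Before thinning these shares were 53.2% and 66.7%, and 2.76% and 30.6%. The part of the B-lineage level in the nonclassical value was not tested.

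None of the 15 markers outside the rule was past 2-fold in either direction, with a median of -0.19, which became 0.03 with the ribosomal genes out of the denominator. The intervals of 4 lay above 0 and those of 6 below it. Itgal was at 471 and 283 CPM, a ratio of -0.73 (-0.92 to -0.55), Nr4a1 at 207 and 144 CPM, a ratio of -0.52 (-0.79 to -0.26), and Eno3 at 144 and 196 CPM, a ratio of 0.44 (0.19 to 0.70). The Treml4 ratio was -0.21 (-0.55 to 0.12) and that of Spn -0.19 (-0.43 to 0.04), so neither was resolved from 0 at this depth. Nr4a1 in classical cells read 29.2 and 53.3 CPM. Of 13 classical markers, Hp (haptoglobin) was past 2-fold on the higher side, at 284 and 603 CPM, and 2 were past it on the lower, Fcgr1 among them, where 3.89% and 6.38% of all genes were.

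Of 24 monocyte transcription factors compared, 2 were at least 2-fold lower and none higher, with a median of -0.42. That count is near the 6.38% of all genes. Irf1, an interferon-responsive factor, was at 87.9 CPM in control cells and 27.7 CPM with MYC, a ratio of -1.63 (-2.26 to -1.12), and Maf at 23.2 and 6.92 CPM. Zeb2 was at 981 and 540 CPM, a ratio of -0.86, and Irf8, a factor of the monocyte and dendritic lineage, at 266 and 154 CPM. Spi1 (PU.1) was at 413 and 495 CPM, a ratio of 0.26 (0.11 to 0.42). Of 23 adhesion genes 1 was past 2-fold, on the lower side, also near that share. S1pr5 was at 49.2 and 47.6 CPM, a ratio of -0.05 (-0.55 to 0.44), and Cd9 at 53.4 and 85.6 CPM, a ratio of 0.67 (0.28 to 1.08).

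Scavenging and lipid genes held 3 of 13 members past 2-fold, all lower, where 6.38% of all genes were. Besides Lpl these were Axl, a receptor for dying cells, at 35.0 and 6.06 CPM, and Msr1, a scavenger receptor, at 68.6 and 33.7 CPM, with an interval of the log2 ratio from -1.57 to -0.50. The Msr1 ratio turned to 0.79 in cells with at most 1 Ly6c2 UMI. Fabp4 was at 105 and 157 CPM and the lipid droplet protein Plin2 at 104 and 178 CPM, a ratio of 0.78 (0.50 to 1.06). The Fabp4 ratio of 0.58 became -0.11 when barcodes with markers of another lineage were left out. Of 17 lysosomal genes Ctse alone was past 2-fold, which is near that share, and Psap (prosaposin), an activator of lipid breakdown in lysosomes, was at 2952 and 1564 CPM, a ratio of -0.92 (-0.99 to -0.84).

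The study's title names alarmins, proteins that signal danger when cells release them. Of 8 S100 and HMGB genes outside the rule, S100a1 was past 2-fold on the higher side, where 3.89% of all genes were, and the median was 0.63. S100a4 was at 1436 CPM in control cells and 2219 CPM with MYC, a ratio of 0.63 (0.55 to 0.70), and S100a11 at 305 and 496 CPM. S100a6 was at 1270 and 1520 CPM, a ratio of 0.26 that became -0.19 with no limit on C1q. Hmgb2 was the 1 member on the lower side, at 885 and 755 CPM. S100a8 and S100a9 set a limit of the rule, so no comparison of them is given. Classical cells had a median of 0.59 over the same list.

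Of 17 inflammatory and NF-kB genes compared, 6 were at least 2-fold lower and none higher, where 6.38% of all genes were lower, with a median of -0.78. For 3 of them single control cells weighed heavily. Cxcl10, an interferon-induced chemokine, drew 135 control UMIs, 56 of them in 1 cell, against 1 UMI in the MYC library. Cxcl9 drew 59 control UMIs, 43 of them in 1 cell, against 0, and Ccl5 drew 76, 37 of them in 1 cell, against 8. Tlr7, a sensor of RNA known to act in nonclassical monocytes, was spread more evenly, at 104 and 45.8 CPM, a ratio of -1.16 (-1.64 to -0.74). Pycard, the inflammasome adaptor, was at 149 and 293 CPM, a ratio of 0.97 (0.75 to 1.20). Among 16 survival genes Bax, which promotes cell death, was 2-fold higher, at 67.1 and 166 CPM, a ratio of 1.29 (0.99 to 1.63), and Birc3 2-fold lower, at 90.3 and 39.8 CPM. These counts of 1 in each direction are near the 3.89% and 6.38% of all genes. Bcl2 was at 44.9 and 52.8 CPM.

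Immediate early genes, which respond to signals and to handling of tissue, held 4 of 17 members past 2-fold, all lower, where 6.38% of all genes were. Jun was at 332 CPM in control cells and 132 CPM with MYC, a ratio of -1.32 (-1.59 to -1.07), and Zfp36 at 405 and 208 CPM. Hspa8 was at 1041 and 1162 CPM. The share of these genes in other differences was not tested.

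Genes of cell division depended on which barcodes were counted. UMIs of Mki67 or Top2a lay in 143 control cells (54.4%) and 51 MYC-library cells (42.5%), a difference of -11.9 points (-22.7 to -0.63). Most of these cells held a single UMI, 87 and 29, and 11 and 7 held 5 or more. At least 10 UMIs of the division list were found in 18 (6.84%) and 7 (5.83%) nonclassical cells, against 59.1% and 66.5% of erythroid cells. Of 23 division genes 7 were at least 2-fold lower in the MYC library and none higher, where 6.38% of all genes were lower, with a median of -0.50. Leaving out barcodes with 3 or more UMIs of another lineage's markers, Ighm aside, kept 193 control and 107 MYC-library cells and turned the median to 0.84 over 11 genes and the ratio of Mki67 from -0.81 to 0.34. No direction is therefore given for this group.

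Markers of other cells were present at the following levels, and their part in the differences between the libraries was not tested. The 12 neutrophil markers summed to 1819 CPM in control cells and 1675 CPM with MYC, with none at 0. The 9 B-lineage markers summed to 2312 and 246 CPM, with 1 control cell holding 3700 of 4891 UMIs, and without it the control sum was 571 CPM. At least 3 UMIs of these markers lay in 185 of 263 control and 47 of 120 MYC-library cells, with medians of 4 and 2 UMIs a cell. Ms4a1, Pax5 and Vpreb3 were among those at 0 in the MYC library. The 9 erythroid markers summed to 6383 and 3653 CPM, with medians of 12 and 8 UMIs a cell. Leaving out 4 control cells and 1 MYC-library cell with at least 5% haemoglobin UMIs gave 2260 and 888 CPM. In classical cells the erythroid sums were 1444 and 693 CPM, and 1364 and 693 CPM with the same limit. All 5 erythroid markers compared between the classes were at least 2-fold higher in nonclassical cells of both libraries, where 2.3% of all genes were. The macrophage markers Cd5l and Mertk were at 0 in both libraries, the 12 macrophage markers summing to 196 and 138 CPM, and 252 control and 102 MYC-library cells held no C1q UMI. Natural killer markers summed to 13 UMIs in control cells and 0 with MYC, and T-cell markers to 44 and 3 UMIs. Plasma cell markers summed to 819 and 152 CPM, with 1 control cell holding 1334 of 1732 UMIs, and plasmacytoid dendritic cell markers to 221 and 114 CPM. Dendritic cell markers summed to 70.4 and 60.6 CPM, stem and progenitor markers to 55.3 and 27.7 CPM, basophil and mast cell markers to 21.3 and 15.6 CPM and megakaryocyte markers to 10.4 and 13.8 CPM.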

How the data were processed

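Nonclassical monocytes were taken from 2 droplet libraries of mouse bone marrow, 1 per genotype. The deposited matrices hold raw UMI counts, whole numbers for each gene in each barcode. Per the file headers, Cell Ranger 6.0.0 wrote them. The submitters' processing notes also name Seurat and the build GRCm38 (mm10). How barcodes were called as cells is not given in the sources used here. Gene positions come from the GENCODE vM21 annotation of GRCm38. No file column was left unread.

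Each class was summed within its library and scaled per 1000000 UMIs. Log2 ratios use a pseudocount of 1 CPM and genes with at least 50 UMIs, leaving out the genes of the rule. Past 2-fold is a size and not a test. Intervals are exact Poisson for levels, conditional binomial for ratios, Clopper-Pearson for shares and Newcombe for differences, at 95%. They leave out differences between animals, so p-values and replicate errors cannot be had. For gene levels and gene ratios they also leave out the spread between cells.

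The cells and the gene lists were chosen with earlier results of these data known. The named genes are the 10 highest and 10 lowest MYC against control with a mean of at least 50 CPM and an interval of the ratio that excludes 1. Left out were rule, mitochondrial, haemoglobin, immunoglobulin, T-cell receptor, ribosomal protein and neutrophil marker genes. Xist, Tsix and the Y chromosome genes Ddx3y, Eif2s3y, Kdm5d and Uty were left out too, while other genes of the X chromosome were kept. Against classical monocytes they are the 12 highest and 12 lowest by the smaller ratio of both libraries, with the same mean, over both classes and libraries, the same interval rule in each library and the same genes left out. List members were named whatever their value, and a few are not reported here, though list counts and sums include them. Free RNA was not removed. Comparison cells for it were erythroid (at least 20% haemoglobin UMIs) and B-lineage (at least 3 UMIs of Cd79a and Cd79b). The log2 ratios and their intervals were tested on simulated Poisson counts, which hold no spread between cells. Other steps were not simulated. Python 3.11.15, NumPy 2.4.6, SciPy 1.17.1, pandas 2.3.3 and scanpy 1.11.5 were used.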

Additional observations from a re-analysis of the deposited data

How the results depend on the processing

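Each result was recomputed under 23 alternatives where they apply. Chosen after seeing the data were 5 of them: ribosomal protein genes out of the denominator, the highest Scrublet scores left out, lineage markers without Ighm, at most 1 Ly6c2 UMI, and, except against classical cells, no Mki67 or Top2a UMI.

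The difference in share of -0.847 points was -1.23 with at least 1 UMI of Ace and Adgre4, -0.206 with no C1q limit, -0.251 without Mki67 and Top2a UMIs and -0.434 with at most 1 Ly6c2 UMI. Without barcodes holding markers of another lineage it was -0.286 over the barcodes kept and 0.187, the other direction, over all passing barcodes. When Ighm was not counted it was -0.442 over all passing barcodes, a denominator chosen after seeing the data. The log2 ratio to classical cells of -1.31 was -0.664 with no C1q limit and -1.88 without other-lineage barcodes.

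Genes higher in the MYC library (239) were 362 by median-of-ratios, 136 without the 20 most abundant genes, 506 without ribosomal genes in the denominator, 384 from 20 UMIs and 109 from 200 UMIs. Genes lower (392) were in the same order 258, 629, 214, 668 and 85, then 244 with a pseudocount of 5 CPM, 129 without other-lineage barcodes, and 209 both without Mki67 and Top2a UMIs and with at most 1 Ly6c2 UMI. Against classical cells, genes higher (130) were 203 from 1 UMI of Ace and Adgre4, 212 with no C1q limit, 46 without other-lineage barcodes, 230 from 20 UMIs and 42 from 200 UMIs. Genes lower (29) were 0 from 1 UMI and 78 from 3 UMIs of Ace and Adgre4, 49 with no C1q limit, 57 as a mean over cells, 15 from 200 UMIs, 51 without Mki67 and Top2a UMIs and 182 with at most 1 Ly6c2 UMI.

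The summed interferon ratio of -1.39 was -1.24 and -1.30 from 1 and 3 UMIs of Ace and Adgre4, -1.56 with no C1q limit, -1.08 without other-lineage barcodes, -1.21 when Ighm was not counted among those markers, -1.26 by median-of-ratios, -1.56 without the 20 most abundant genes, -1.16 without ribosomal genes and -1.16 with at most 1 Ly6c2 UMI. The ribosomal ratio of 1.02 was in the same order 0.882 and 1.03, 0.987, 1.12, 1.04, 1.15, 0.848, 1.25 and 1.14. It was also 1.04 under 5% mitochondrial UMIs, 1.01 from 2 UMIs of Csf1r and Cx3cr1, 0.996 with 0 C1q UMIs, 1.07 as a mean over cells, 1.05 without Mki67 and Top2a UMIs and 1.04 without the highest Scrublet scores. Neither sum changed direction under these alternatives.

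Single genes that changed direction, MYC against control, were Cebpb (0.32 to -0.23), Fos (-0.42 to 0.0404), Lpl (-2.46 to 0.15), Pou2f2 (-0.46 to 0.25) and S100a6 (0.26 to -0.19) with no C1q limit, where Cebpb against classical cells of the MYC library also went to -0.35. With at most 1 Ly6c2 UMI these were Bst2 (to 0.0922) and Msr1 (to 0.79). Ly6c2 went from -0.99 to 0.14 there, but that setting limits Ly6c2 itself, so its value shows nothing about direction. Without other-lineage barcodes they were Fabp4 (to -0.11), Fcgr4 (to -0.18), Msr1 (to 0.70) and Ccnb1 (-1.78 to 0.23). Ccnb1 was 0.54 and Mki67 0.34 when Ighm was not counted, and Ccnb1 0.12 without Mki67 and Top2a UMIs. Without ribosomal genes in the denominator Ctss went from -0.20 to 0.0275 and Pglyrp1 from -0.22 to 0.00417. The causes were not tested.

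No paired analysis was possible because each genotype has 1 library and the labels carry no replicate numbers. Depth limits genes under about 50 UMIs.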
